A study of Mus musculus with 8 samples.

Results

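Spliceosome and splicing factor genes were followed in mouse blastocysts that were kept fresh, vitrified, or vitrified with melatonin. The rule that gave the members reads gene symbols only. They were the genes of the deposited expression table whose symbols belong to the Snrp, Lsm, Sf3a, Sf3b, Prpf, Srsf and U2af families, or read Sf1. Symbols ending in -ps were to be left out, and there were 0 of these. The rule gave 62 members among the 19688 genes of the table.

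Splicing removes introns from pre-mRNA and joins the exons. It is carried out by the spliceosome, which is built anew on each intron from small nuclear RNAs, the Sm and LSm protein rings that hold them, and factors that read the branch point and the 3′ splice site or rearrange the particle for catalysis. SR proteins bind exons and help to choose splice sites. The early embryo first relies on splicing factors stored in the oocyte and later on those made from its own genome.

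At the blastocyst stage a trophectoderm layer encloses the inner cell mass and a cavity. Fresh blastocysts served as control in 2 libraries (named IVF in the sample names). Another 3 libraries came from blastocysts that had been vitrified, a rapid cooling to a glass in cryoprotectant. The last 3 libraries came from vitrified blastocysts whose vitrification and thawing media had contained 1e-10 M melatonin, a hormone with antioxidant activity. Strain, age of the embryos, number of embryos per library and whether the replicates were separate cultures are not stated in the labels, so p-values measure only the spread between these samples. In RNA from whole embryos, fewer cells of a type and less RNA per cell cannot be told apart.

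Levels are FPKM, in which fragments are divided by the length of the transcript and the size of the library. They can be compared between genes because they are per length. From the step between low values, the libraries were estimated to rest on 5842000 to 9920000 fragments, and 11.7 to 19.8 fragments gave 1 FPKM for a 2 kb transcript. Trophectoderm markers were present throughout, with 10 of 10 at 1 FPKM or more in every library, whereas cumulus cell markers summed to at most 0.548 FPKM and fibroblast markers to at most 0.336 FPKM. The fresh libraries differed from each other and from the rest. Mitochondrially encoded genes took 11.3% of the summed FPKM in fresh replicate 1, 6.56% in fresh replicate 2 and 4.24% to 5.89% elsewhere. The nuclear RNA Malat1 stood at 11.4 FPKM in fresh replicate 1 and at 70.3 to 149 FPKM in the other libraries. The 8 epiblast markers summed to 27.7 and 73.6 FPKM in the fresh libraries, to 139 to 180 FPKM in the vitrified and to 140 to 158 FPKM in the melatonin libraries. The part of these differences in the results on splicing genes was not tested, and for 8 members the difference from fresh is also given without each fresh library in turn.

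Of the 62 members, 58 reached 1 FPKM in at least 2 libraries and were tested. Lsm14b stood between 0 and 0.424 FPKM, Prpf19 between 0.213 and 0.932 FPKM, Prpf40b between 0.147 and 0.611 FPKM, and Srsf12 between 0 and 0.201 FPKM, so these 4 were not tested. Prpf19 encodes the ubiquitin ligase at the centre of the Prp19 complex. The most abundant members were Srsf7 with a mean of 226 FPKM over the 3 groups, Lsm4 with 201, Snrpd1 with 186 and Sf3b4 with 183.

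No member passed the test in any comparison. Differences are of mean log2(FPKM + 1), tested with limma over all 10755 tested genes in 1 model of the 8 libraries, with Benjamini-Hochberg adjusted p below 0.05 as the threshold (two-sided). For vitrified against fresh blastocysts, 0 of 58 members and 0.865% of all tested genes passed. For melatonin against vitrified, the counts were 0 of 58 members and 0.139% of all genes. For melatonin against fresh, 0 of 58 members and 0% of all genes passed. limma without the variance trend also called 0 members in each comparison. The values below are therefore descriptions of levels and their spread.

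Before adjustment, 7 members had p below 0.05 with higher levels in vitrified than in fresh blastocysts, which is 12.1% of members beside 15.6% of all tested genes. Only Lsm10 had such a p with a lower level, 1.72% of members beside 4.56% of all genes. Libraries of the compared groups did not overlap for 14 members that were higher after vitrification (24.1%, beside 26.4% of all genes) and for 5 that were lower (8.62%, beside 10.6%). With every library kept, the members' shares were thus close to or under those of all genes. Here and below, leaving out a library can only keep or raise the counts without overlap, so these are read only beside the shares of all genes. Without fresh replicate 1 there were 22 higher members without overlap (37.9%, beside 37.7% of all genes) and 9 lower (15.5%, beside 26.7%). Without fresh replicate 2 there were 23 higher (39.7%, beside 49.7%) and 25 lower (43.1%, beside 22.1%). Without vitrified replicate 2 there were 15 higher (25.9%, beside 32.96%) and 17 lower (29.3%, beside 16.1%). Without vitrified replicate 1 there were 14 higher (24.1%, beside 32.9%) and 5 lower (8.62%, beside 13.7%). Without vitrified replicate 3 there were 16 higher (27.6%, beside 30.2%) and 7 lower (12.1%, beside 13.1%).

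With melatonin, more members lay below the vitrified libraries than above them. An unadjusted p below 0.05 with a lower level was found for 10 members (17.2%, beside 10.2% of all genes), and with a higher level for 0 members (beside 4.59%). Groups did not overlap for 18 lower members (31.0%, beside 15.4%) and for 2 higher members, Prpf18 and Prpf8 (3.45%, beside 9.3%). Leaving out 1 library of these groups gave 19 to 23 lower members (32.8% to 39.7%, beside 19.4% to 24.3% of all genes) and 2 to 5 higher ones (3.45% to 8.62%, beside 12.7% to 15.0%). Higher members numbered 4 without vitrified replicate 2 or melatonin replicate 3, and 5 without melatonin replicate 2. Against fresh blastocysts, melatonin libraries had 12 lower members at an unadjusted p below 0.05 (20.7%, beside 6.82%) and 4 higher members (6.9%, beside 11.6%). There, 20 members lay lower without overlap (34.5%, beside 13.5%) and 5 lay higher (8.62%, beside 20.8%). Without fresh replicate 1 there were 26 lower (44.8%, beside 28.7% of all genes) and 13 higher (22.4%, beside 29.9%), and without fresh replicate 2 there were 34 lower (58.6%, beside 25.0%) and 14 higher (24.1%, beside 45.4%). Leaving out melatonin replicate 1 gave 21 lower and 6 higher (beside 17.2% and 26.5% of all genes). Leaving out melatonin replicate 2 gave 20 and 8 (beside 17.5% and 25.8%), and leaving out melatonin replicate 3 gave 25 and 9 (beside 17.6% and 27.7%). The 3 comparisons share libraries, so their counts are not independent.

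The median member difference was -0.01 for vitrified against fresh, beside 0.14 for all tested genes. It was -0.19 for melatonin against vitrified, beside -0.05, with 44 of 58 members and 6049 of 10755 tested genes below 0. For melatonin against fresh it was -0.15, beside 0.09. Median ratio scaling, which sets the typical gene level, brought the median of all genes for vitrified against fresh from 0.14 to -0.01 and that of the members to -0.19, so values for this comparison are best read against the shift of all genes. Summed over the 62 members, the fresh libraries held 3236 and 2684 FPKM, the vitrified libraries 2712, 3236 and 2770 FPKM, and the melatonin libraries 2239, 2475 and 2634 FPKM. Every melatonin library was below every other library. The ratio of means was 0.982 for vitrified against fresh (exact permutation p = 0.8, two-sided), 0.843 for melatonin against vitrified (exact permutation p = 0.1) and 0.827 for melatonin against fresh (exact permutation p = 0.2). Adjusted over the 3 comparisons the exact permutation p-values were 0.8, 0.3 and 0.3. The unadjusted 0.1 for melatonin against vitrified and 0.2 for melatonin against fresh were each the smallest that this test could give with so few libraries. The total over all genes ran from 370870.5 FPKM (melatonin replicate 1) to 455879.7 FPKM (fresh replicate 1). As a percentage of it, the members' mean was 0.691 (fresh), 0.733 (vitrified) and 0.641 (melatonin). On this scale vitrified was above fresh, and melatonin was proportionally less far below fresh. Every melatonin library (0.604 to 0.666) was still below every other library, with fresh replicate 2 next (0.672). These percentages were not tested.

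**Figure D1:**
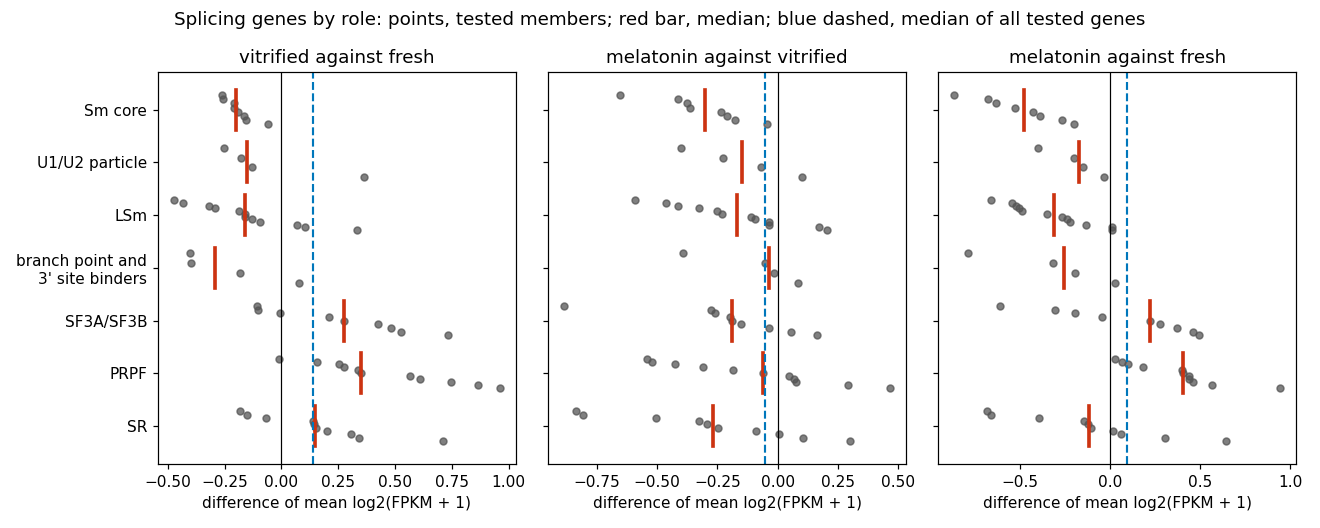
Differences of mean log2(FPKM + 1) for the 58 tested members, 1 point each, in rows by role and in 1 panel per comparison, with the median of each role as a red bar and the median of all tested genes as a blue dashed line. The 8 Sm core points lie below 0 in all 3 panels (7 of 8 in the panel of melatonin against vitrified with median ratio scaling, and 7 of 8 in both panels with vitrified libraries with quantile normalization), and the PRPF points lie mostly above 0 against fresh blastocysts (9 and 8 of 11 with median ratio scaling).

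The Sm core proteins form the ring around the U1, U2, U4 and U5 RNAs. All 8 were measured (Snrpb, Snrpn, Snrpd1, Snrpd2, Snrpd3, Snrpe, Snrpf and Snrpg), at group means between 33.6 and 216 FPKM. Their summed level was 921 and 761 FPKM in fresh libraries, 682, 869 and 706 FPKM in vitrified libraries, and 533, 651 and 680 FPKM in melatonin libraries. The melatonin libraries lay below all others, and vitrified replicate 2 lay between the fresh libraries. As a percentage of the total over all genes, vitrified replicate 2 (0.213) was above both fresh libraries (0.202 and 0.190). The melatonin libraries were still the lowest. The median difference from fresh was -0.20 in vitrified and -0.48 in melatonin libraries, and melatonin libraries differed from vitrified ones by a median of -0.30, with 8 of 8 members below 0 each time. Of all 10755 tested genes, 3927, 4381 and 6049 were below 0 in the same order. Against fresh, all 8 were lower in melatonin libraries without overlap (beside 13.5% of all tested genes), which leaving out a library cannot undo. Of the 8, 4 had an unadjusted limma p below 0.05 with a lower level (beside 6.82% of all genes). For vitrified against fresh, 0 of 8 were free of overlap, beside 26.4% higher and 10.6% lower among all genes. Lower without overlap were 6 without fresh replicate 2 (beside 22.1% of all genes) and 5 without vitrified replicate 2 (beside 16.1%). Without fresh replicate 1, 1 was lower (beside 26.7%) and 1 higher (beside 37.7%). Without vitrified replicate 1 or 3, 0 were lower (beside 13.7% and 13.1%). Without fresh replicate 1 the median was -0.06 with 5 of 8 below 0. With median ratio scaling, quantile normalization, or the trends with length and GC removed, 7 of 8 lay below 0 for melatonin against vitrified, and with quantile normalization 7 of 8 did so for vitrified against fresh. The median for melatonin against vitrified was -0.17 without vitrified replicate 2 or without melatonin replicate 1. With the title number as a replicate block it was -0.03, with 6 of 8 below 0. Fresh replicate 2, vitrified replicate 2 and melatonin replicate 1 have title numbers of their own. With that block they do not enter the differences.

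Snrpg encodes the SmG subunit of the ring (chr6:86371304-86379328, plus strand, GRCm38). It stood at 85.4 and 46.7 FPKM in fresh, at 47.7, 61.9 and 55.0 FPKM in vitrified and at 24.4, 39.3 and 41.8 FPKM in melatonin libraries. The melatonin libraries were below all others, and the fresh libraries spanned the vitrified ones. The difference was -0.86 ± 0.29 (SE) for melatonin against fresh, with an adjusted p of 0.186, and -0.66 ± 0.26 for melatonin against vitrified, with an adjusted p of 0.295. The first of these became -1.29 without fresh replicate 2 (adjusted p = 0.0482) and -0.44 without fresh replicate 1 (adjusted p = 0.629).

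Snrpf, which encodes SmF, had 60.4 and 47.9 FPKM in fresh, 42.2, 58.7 and 35.9 FPKM in vitrified and 25.0, 37.9 and 38.8 FPKM in melatonin libraries. Only the fresh and melatonin groups were apart, with a difference of -0.68 ± 0.26 (SE, adjusted p = 0.218). Snrpd1, the Sm core member of the highest level and the gene of SmD1, had 250 and 183 FPKM in fresh, 162, 229 and 188 FPKM in vitrified and 124, 155 and 168 FPKM in melatonin libraries. Its vitrified libraries overlapped both other groups. The difference for melatonin against fresh was -0.53 ± 0.21 (SE, adjusted p = 0.229).

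Of the proteins particular to the U1 and U2 particles, Snrpa, Snrpc, Snrpa1 and Snrpb2 were measured, and their medians were -0.15, -0.15 and -0.18 in the order of comparisons used above. Without melatonin replicate 1 the last 2 of these were -0.02 and -0.07, and with the title number as a replicate block the median for melatonin against vitrified was 0.05. Snrpa encodes the A protein of the U1 particle, which binds a stem loop of U1 RNA. It had 82.6 and 56.4 FPKM in fresh, 83.0, 101 and 82.1 FPKM in vitrified and 60.5, 66.7 and 73.1 FPKM in melatonin libraries. The melatonin libraries were below the vitrified ones and between the fresh ones. The difference for melatonin against vitrified was -0.40 ± 0.17 (SE, adjusted p = 0.322).

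Sf1 and the U2af genes encode the proteins that first recognise the branch point and the 3′ splice site. The most abundant, U2af1, encodes the small U2AF subunit that contacts the AG at the end of the intron. It stood at 22.3 and 22.1 FPKM in fresh, at 13.2, 19.0 and 18.0 FPKM in vitrified and at 15.1, 16.4 and 21.9 FPKM in melatonin libraries. The fresh libraries were above all others, with melatonin replicate 3 close below them. The difference for vitrified against fresh was -0.40 ± 0.22 (SE, adjusted p = 0.326). Reads of this gene are uncertain, since 59.4% of the 50-base words of its longest coding transcript also occur in transcripts of other genes. For U2af1l4, a paralog, that share was 97.2%.

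SF3A and SF3B are the complexes by which the U2 particle holds the branch point. Their 9 subunits had a median difference from fresh of 0.28 in vitrified and 0.22 in melatonin libraries (0.10 in each with median ratio scaling), and of -0.19 between melatonin and vitrified libraries (-0.05 without melatonin replicate 1, and -0.10 without vitrified replicate 2). Sf3a1, Sf3b1, Sf3b2 and Sf3b3 were above both fresh libraries in every vitrified library (44.4% of the 9, beside 26.4% of all tested genes). So was Cog4, which overlaps Sf3b3 on the opposite strand (difference 0.57), and whether its reads enter the values of Sf3b3 was not tested. Sf3b1, the scaffold that clamps the branch helix, had 10.6 and 14.0 FPKM in fresh, 22.7, 21.7 and 18.7 FPKM in vitrified and 18.4, 19.5 and 14.0 FPKM in melatonin libraries. Fresh replicate 2 and melatonin replicate 3 were equal at this rounding, with the melatonin library the higher. Its difference for vitrified against fresh was 0.74 ± 0.20 (SE, adjusted p = 0.0900) and for melatonin against fresh 0.46 ± 0.20 (SE, adjusted p = 0.269). Without fresh replicate 1 these were 0.55 and 0.28, and without fresh replicate 2 they were 0.92 and 0.64, with adjusted p from 0.0636 to 0.695.

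The 200 bases before the annotated start of Sf3b1 are printed because it is among the members farthest above fresh blastocysts (chr1:55027479-55027678, minus strand, GRCm38.p6, from RefSeq). Capitals here and below mark the motif matches. The motifs searched, on both strands, were the GC box GGGCGG, the CCAAT box CCAAT, the ETS core CCGGAAG, the E-box CACGTG and the TATA box TATAAA.
Sf3b1: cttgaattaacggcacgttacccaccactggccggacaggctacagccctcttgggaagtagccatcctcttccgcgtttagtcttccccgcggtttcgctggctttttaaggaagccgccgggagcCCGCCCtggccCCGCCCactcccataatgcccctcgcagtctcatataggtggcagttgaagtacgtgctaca
The window of Sf3b1 held 2 GC boxes on the opposite strand, their first bases 73 and 62 before the start. GC boxes occurred in 31.0% of all 32851 RefSeq promoter windows of this length, in 55.8% of the 9568 windows of tested genes and in 53.0% of the 66 windows of members.

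Sf3a1, which encodes the largest SF3A protein, had 16.0 and 18.1 FPKM in fresh, 24.7, 25.3 and 25.0 FPKM in vitrified and 24.9, 29.3 and 19.7 FPKM in melatonin libraries. Both fresh libraries were below all others. The differences from fresh were 0.53 ± 0.19 (SE, adjusted p = 0.157) for vitrified and 0.49 ± 0.19 (SE, adjusted p = 0.220) for melatonin libraries. Sf3a2, which encodes another SF3A subunit, went a different way, with 8.14 and 4.48 FPKM in fresh, 7.03, 8.75 and 7.03 FPKM in vitrified and 3.22, 2.84 and 5.15 FPKM in melatonin libraries. The melatonin libraries were below the vitrified ones, and melatonin replicate 3 was above fresh replicate 2. Its difference for melatonin against vitrified was -0.89 ± 0.25 (SE, adjusted p = 0.197), the lowest of all members named for that comparison. Plekhj1, which overlaps Sf3a2 on the opposite strand, had 107 and 95.3 FPKM in fresh and 76.6, 80.9 and 85.3 FPKM in vitrified libraries. In melatonin libraries Plekhj1 had 70.7, 74.2 and 64.3 FPKM, a difference of -0.21 from vitrified. Whether its reads enter the values of Sf3a2 was not tested. Sf3a3, the third SF3A subunit, had 54.6 and 68.7 FPKM in fresh, 64.1, 81.7 and 68.2 FPKM in vitrified and 71.7, 90.1 and 78.0 FPKM in melatonin libraries. Melatonin libraries lay above both fresh ones for Sf3a3, and the vitrified group overlapped both.

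Sf3b4 was the most abundant subunit, with 256 and 133 FPKM in fresh, 162, 189 and 166 FPKM in vitrified and 143, 220 and 182 FPKM in melatonin libraries. The fresh libraries spanned all others. Its reads are uncertain as well, with 49.3% of its 50-base words shared with another gene, Gm7935. Of the 62 members, 11 shared more than 20% of such words. Besides the genes named so far these were Lsm5 (44.0%), Srsf3 (31.5%), U2af2 (29.9%) and Srsf5 (27.8%). Snrpa (22.5%), Snrpf (21.3%), Snrpn (21.2%) and Snrpe (20.8%) were the rest, and reads of all of these are uncertain to that extent.

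PRPF factors act mainly in the U4/U6.U5 tri-snRNP and in the steps to catalysis. Of the 11 tested, 10 were above 0 for vitrified against fresh (median 0.35), beside 6828 of all 10755 tested genes. For melatonin against fresh 11 were above 0 (median 0.40), beside 6364 of all tested genes. The median for melatonin against vitrified was -0.06 (0.01 with median ratio scaling and 0.02 without vitrified replicate 2). The sum over the 13 PRPF members was 119 and 130 FPKM in fresh, 166, 171 and 164 FPKM in vitrified and 153, 160 and 163 FPKM in melatonin libraries. The fresh libraries were below all others. With median ratio scaling the counts above 0 were 9 and 8 of 11 against fresh, and without fresh replicate 1 they were 8 and 7 of 11, with medians of 0.24 and 0.12.

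Prpf6 encodes a protein that bridges the U5 and U4/U6 particles (chr2:181591868-181655660, plus strand, GRCm38). It had 7.26 and 9.58 FPKM in fresh, 17.7, 14.8 and 15.8 FPKM in vitrified and 21.3, 16.6 and 13.7 FPKM in melatonin libraries. Fresh libraries were below all 6 others, and the vitrified group lay within the melatonin group. The difference was 0.87 ± 0.22 (SE, adjusted p = 0.0736) for vitrified against fresh and 0.94 ± 0.22 (SE, adjusted p = 0.135) for melatonin against fresh. The second was 1.12 without fresh replicate 2 (adjusted p = 0.0468) and 0.76 without fresh replicate 1 (adjusted p = 0.407), and the first was 1.04 and 0.69 (adjusted p = 0.0589 and 0.243). Of the genes on the other strand that overlap Prpf6, Znf512b stayed between 0.128 and 0.909 FPKM and was not tested. The other, Samd10, had 9.61 and 6.82 FPKM in fresh, 6.62, 4.27 and 6.95 FPKM in vitrified and 7.36, 7.83 and 6.85 FPKM in melatonin libraries, and so did not share this order. The 200 bases before the RefSeq start (chr2:181601119-181601318, plus strand, GRCm38.p6) are shown for the member with the smallest adjusted p against fresh. This start lies inside the GENCODE gene, whose first annotated base is upstream of the window.
Prpf6: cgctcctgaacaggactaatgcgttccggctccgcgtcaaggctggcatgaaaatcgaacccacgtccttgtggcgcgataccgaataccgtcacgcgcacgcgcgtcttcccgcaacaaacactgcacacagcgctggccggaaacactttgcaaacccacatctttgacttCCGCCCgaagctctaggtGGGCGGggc
The window of Prpf6 held a GC box on the opposite strand 27 bases before the start and another on the given strand 9 bases before it. No other searched motif matched in it or in that of Sf3b1.

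Prpf4b, a kinase that associates with the tri-snRNP, had 4.95 and 11.0 FPKM in fresh, 13.5, 13.2 and 12.9 FPKM in vitrified and 11.0, 10.8 and 9.58 FPKM in melatonin libraries. Vitrified libraries lay above both other groups, and fresh replicate 1 was far below the rest. The difference for vitrified against fresh was 0.75 ± 0.27 (SE, adjusted p = 0.163), and it was 1.25 without fresh replicate 2 (adjusted p = 0.0183) but 0.24 without fresh replicate 1 (adjusted p = 0.576). Prpf39, related to a U1 particle protein of yeast, had 29.0 and 8.53 FPKM in fresh, 31.8, 33.3 and 30.8 FPKM in vitrified and 9.94, 32.3 and 32.2 FPKM in melatonin libraries. Here 2 libraries of different groups, fresh replicate 2 and melatonin replicate 1, stood apart from 6 close ones. The difference for vitrified against fresh was 0.96 ± 0.54 (SE, adjusted p = 0.346), the highest of the named members with the widest error, and it was 1.79 without fresh replicate 1 (adjusted p = 0.178) and 0.13 without fresh replicate 2 (adjusted p = 0.899).

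Prpf8 encodes the large protein at the catalytic core. It had 6.47 and 16.2 FPKM in fresh, 9.61, 11.1 and 10.1 FPKM in vitrified and 16.0, 13.1 and 14.8 FPKM in melatonin libraries. Melatonin libraries were above the vitrified ones, and the fresh libraries lay on either side of both groups. The difference for melatonin against vitrified was 0.47 ± 0.27 (SE, adjusted p = 0.445). Prpf18, a factor of the second catalytic step, had 4.96 and 6.10 FPKM in fresh, 7.59, 7.10 and 6.00 FPKM in vitrified and 8.03, 8.81 and 9.09 FPKM in melatonin libraries. Its melatonin libraries were above all others. The difference was 0.57 ± 0.19 (SE, adjusted p = 0.183) against fresh and 0.29 ± 0.17 (SE, adjusted p = 0.444) against vitrified. Prpf38a, the PRPF member of the highest level, had 23.3 and 30.5 FPKM in fresh, 27.0, 33.3 and 29.4 FPKM in vitrified and 28.8, 24.4 and 33.1 FPKM in melatonin libraries, with all groups overlapping.

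**Figure D2:**
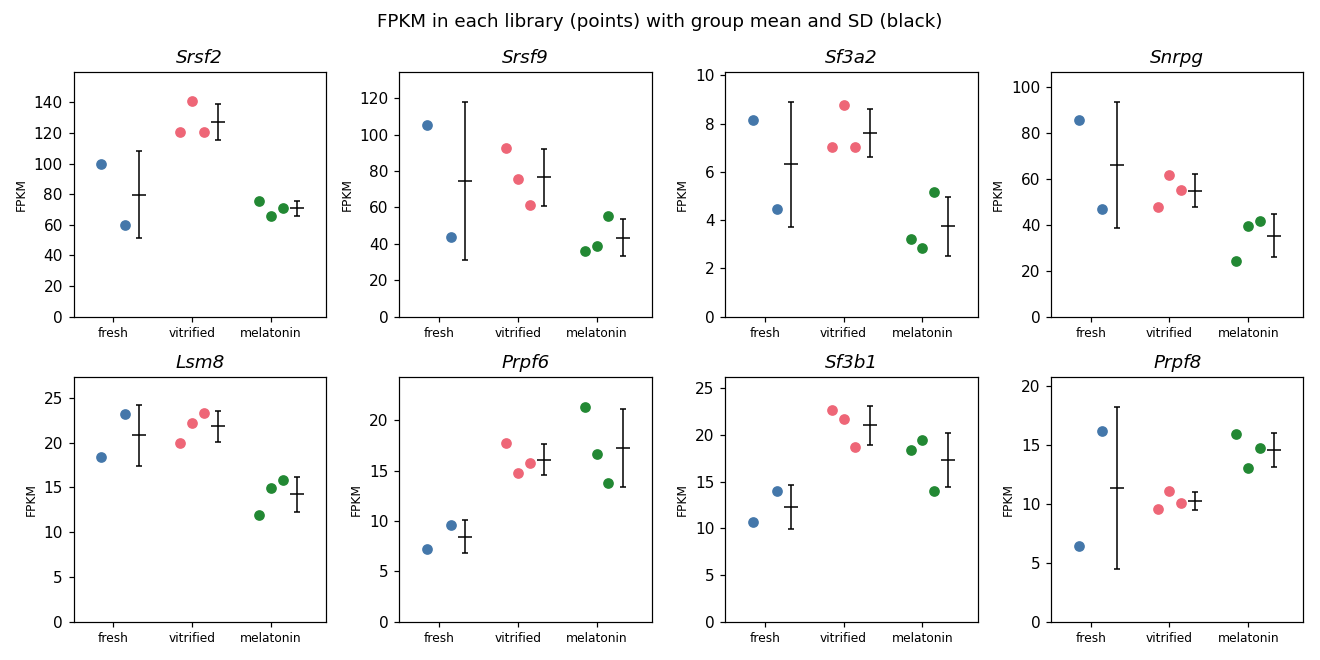
FPKM of 8 members in each library (points, coloured by group) with the group mean and SD in black, each axis starting at 0. Srsf2 is highest in the 3 vitrified libraries (121 to 141 FPKM), and for Prpf6 both fresh libraries lie below all others.

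LSm proteins form the ring on U6 RNA and a related ring in mRNA decay, whereas Lsm10 and Lsm11 belong to the U7 particle that processes histone transcripts. The 12 tested LSm members had medians of -0.16, -0.17 and -0.31, with 9, 10 and 10 of them below 0. The second median was -0.02 without vitrified replicate 2 and -0.05 with the title number as a replicate block. In both, 6 of 12 were below 0. The first was -0.06 without fresh replicate 1, -0.30 without fresh replicate 2 and -0.55 with that block. There, fresh rests on replicate 1 alone. Lsm10 had 25.7 and 26.6 FPKM in fresh, 18.2, 19.1 and 18.4 FPKM in vitrified and 23.5, 17.1 and 24.7 FPKM in melatonin libraries. Fresh libraries were above all others, and 2 of the 3 melatonin libraries lay between the fresh and the vitrified ones. The difference for vitrified against fresh was -0.47 ± 0.18 (SE, adjusted p = 0.196).

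Lsm8, the subunit that sets the nuclear U6 ring apart from the decay ring, had 18.4 and 23.2 FPKM in fresh, 19.9, 22.1 and 23.3 FPKM in vitrified and 12.0, 14.9 and 15.8 FPKM in melatonin libraries. Melatonin libraries were below all others. The difference was -0.59 ± 0.17 (SE, adjusted p = 0.194) against vitrified and -0.52 ± 0.19 (SE, adjusted p = 0.204) against fresh. Lsm4, shared by both rings and the most abundant LSm member, had 240 and 214 FPKM in fresh, 192, 259 and 192 FPKM in vitrified and 135, 162 and 184 FPKM in melatonin libraries. Again the melatonin libraries were below all others, with a difference of -0.41 ± 0.17 (SE, adjusted p = 0.303) against vitrified.

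Lsm6, of both rings, had 14.1 and 12.2 FPKM in fresh, 7.22, 12.1 and 9.58 FPKM in vitrified and 8.33, 6.90 and 8.55 FPKM in melatonin libraries. Both fresh libraries were above the rest, and its difference for melatonin against fresh was -0.66 ± 0.23 (SE, adjusted p = 0.188). Lsm1, the subunit particular to the decay ring, had 42.4 and 29.0 FPKM in fresh, 25.6, 32.1 and 28.1 FPKM in vitrified and 24.9, 23.4 and 22.9 FPKM in melatonin libraries. The melatonin libraries were the lowest. Lsm7 had 133 and 131 FPKM in fresh, 91.6, 133 and 97.4 FPKM in vitrified and 101, 94.1 and 115 FPKM in melatonin libraries, with fresh above melatonin.

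SR protein genes as a sum separated the melatonin libraries from all others. Over the 11 members it was 734 and 518 FPKM in fresh, 643, 702 and 608 FPKM in vitrified and 462, 422 and 506 FPKM in melatonin libraries. Of the 10 tested, 6 were lower with melatonin than in vitrified libraries without overlap (Srsf2, Srsf3, Srsf5, Srsf6, Srsf7 and Srsf9), and 0 were higher, beside 15.4% and 9.3% of all tested genes. Leaving out a library can only keep or raise these counts. With 1 library of these groups left out they were 6 or 7 lower and 0 or 1 higher. Among all genes, 19.4% to 24.3% were then lower and 12.7% to 15.0% higher. The median difference was -0.27 for melatonin against vitrified, 0.15 for vitrified against fresh and -0.12 for melatonin against fresh. For vitrified against fresh it was -0.04 with median ratio scaling, and for melatonin against fresh it was 0.01 without fresh replicate 1 and -0.26 without fresh replicate 2.

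**Figure D3:**
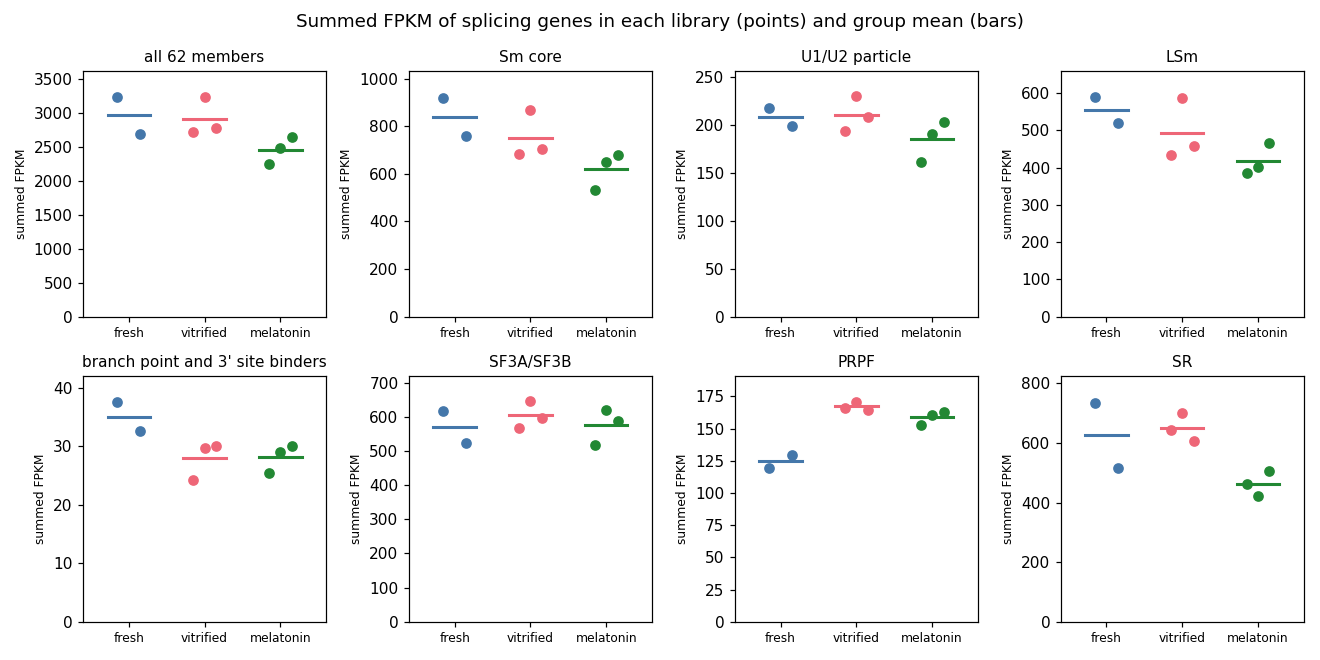
Summed FPKM of all members and of each role in every library (points) with the group mean (bar), on axes that start at 0. In the panels of all members, the Sm core and the SR proteins the melatonin libraries are the lowest, and in the PRPF panel the fresh libraries are the lowest.

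Srsf2 encodes SC35, an SR protein of nuclear speckles (chr11:116849901-116853094, minus strand, GRCm38). It stood at 99.7 and 59.8 FPKM in fresh, at 121, 141 and 121 FPKM in vitrified and at 75.7, 65.7 and 71.0 FPKM in melatonin libraries. All vitrified libraries were above all others, and the melatonin libraries lay between the fresh ones. The difference was 0.71 ± 0.21 (SE, adjusted p = 0.107) for vitrified against fresh and -0.84 ± 0.19 (SE, adjusted p = 0.121) for melatonin against vitrified. The first was 1.08 without fresh replicate 1 (adjusted p = 0.0700) and 0.35 without fresh replicate 2 (adjusted p = 0.254). In a fit of only the groups compared, the second had an adjusted p of 0.0330, and it was 0.0334 without fresh replicate 1 and 0.0323 without fresh replicate 2, so the call depended on how the fresh libraries entered the shared spread.

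Overlapping genes on the opposite strand of Srsf2 were also highest in the vitrified libraries. Mfsd11 had 8.57 and 3.31 FPKM in fresh, 11.2, 12.0 and 10.7 FPKM in vitrified and 5.85, 6.54 and 5.66 FPKM in melatonin libraries. Mettl23 had 23.3 and 21.1 FPKM in fresh, 31.1, 31.6 and 32.9 FPKM in vitrified and 20.9, 19.7 and 23.1 FPKM in melatonin libraries. For melatonin against vitrified their differences were -0.81 and -0.56. The sources used here do not say whether strand was used in counting, so reads of Srsf2 and of these neighbours cannot be told apart. Of the 62 members, 20 overlap an annotated gene on the opposite strand.

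Srsf9, which encodes SRp30c, had 105 and 44.0 FPKM in fresh, 92.5, 75.7 and 61.4 FPKM in vitrified and 36.1, 39.1 and 55.1 FPKM in melatonin libraries. The melatonin libraries were below the vitrified ones, and the fresh libraries spanned the vitrified ones. The difference for melatonin against vitrified was -0.81 ± 0.31 (SE, adjusted p = 0.277) and for melatonin against fresh -0.66 ± 0.34 (SE, adjusted p = 0.333). The latter was -1.28 without fresh replicate 2 (adjusted p = 0.0458) and -0.04 without fresh replicate 1 (adjusted p = 0.971).

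The 200 bases before the starts of these SR genes are shown side by side because both were lower with melatonin (Srsf2 at chr11:116853095-116853294, minus strand, and Srsf9 at chr5:115326977-115327176, plus strand, GRCm38.p6, from RefSeq).
Srsf2: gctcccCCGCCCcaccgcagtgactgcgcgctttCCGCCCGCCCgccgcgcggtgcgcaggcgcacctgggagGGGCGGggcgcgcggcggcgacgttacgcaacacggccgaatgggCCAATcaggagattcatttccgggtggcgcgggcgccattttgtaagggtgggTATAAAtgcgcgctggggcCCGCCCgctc
Srsf9: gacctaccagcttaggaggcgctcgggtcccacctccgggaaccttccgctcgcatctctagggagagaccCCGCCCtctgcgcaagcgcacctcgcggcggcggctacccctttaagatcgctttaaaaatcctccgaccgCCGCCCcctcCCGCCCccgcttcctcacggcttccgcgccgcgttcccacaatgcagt
The window of Srsf2 held 7 matches, among them 5 GC boxes, of which a pair overlaps, a CCAAT box 82 bases and a TATA box 29 bases before the start. That of Srsf9 held 3 GC boxes on the opposite strand and no other match. TATAAA occurred in 9.96% of all windows, in 4.31% of those of tested genes and in 6.06% of those of members. CCAAT occurred in 29.3%, 33.1% and 36.4%, CCGGAAG in 6.29%, 14.1% and 22.7%, and CACGTG in 5.26%, 7.60% and 7.58% of these sets. Windows were found for 52 of the 62 members, some with more than 1 start, and a match is a description of letters, not of a factor bound there.

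Srsf7, the SR member of the highest level, had 321 and 224 FPKM in fresh, 227, 265 and 219 FPKM in vitrified and 164, 133 and 211 FPKM in melatonin libraries. All melatonin libraries were below all others. The difference was -0.69 ± 0.22 (SE, adjusted p = 0.176) against fresh and -0.50 ± 0.20 (SE, adjusted p = 0.290) against vitrified. The first became -0.43 without fresh replicate 1 (adjusted p = 0.580) and -0.95 without fresh replicate 2 (adjusted p = 0.0637). Srsf1, the SR protein also known as SF2/ASF, had 3.38 and 3.47 FPKM in fresh, 4.99, 4.98 and 3.93 FPKM in vitrified and 7.13, 9.26 and 2.96 FPKM in melatonin libraries. Melatonin replicates 1 and 2 were the highest and replicate 3 the lowest of all 8. Its difference for melatonin against fresh was 0.64 ± 0.35 (SE, adjusted p = 0.360).

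Members differed between the fresh libraries by a median of 0.32 in absolute log2(FPKM + 1), beside 0.37 for all tested genes, and 18 of 58 differed by more than 0.5. Within groups, the median SD of members was 0.23 (fresh), 0.16 (vitrified) and 0.21 (melatonin), beside 0.26, 0.20 and 0.22 for all genes.

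Differences from fresh blastocysts went with annotated transcript length. Length here is the median over all annotated transcripts of a gene, and it can be far below that of the longest coding transcript. For Prpf4b these were 958 and 7844 bases and for Sf3b2 963 and 3222 bases, whereas for Lsm11 both were 6453 bases. Across the 58 tested members, which share these 8 libraries and are not replicates, Spearman's rho between length and difference from fresh was 0.48 in both vitrified and melatonin libraries, and 0.07 for melatonin against vitrified. Over the 10713 tested genes with a length, it was 0.13 and 0.18 against fresh, and 0.07. The 28 members under 1000 bases, which include most Sm and LSm genes, had a median of -0.15 for vitrified against fresh, beside 0.08 for all genes of that length. For the 18 members of 2000 bases and over the median was 0.20, beside 0.23. With the trends over length and GC content removed, 8 of 8 Sm core members were still below 0 for both comparisons with fresh (medians -0.35 and -0.54). Of the 11 PRPF members, 8 were above 0 in each (medians 0.11 and 0.23). This removal also centres each library on the mean of all genes, so it takes out the shift of all genes together with the trends. With median ratio scaling and the trends kept, the medians were -0.39 and -0.60 for Sm core and 0.17 and 0.29 for PRPF members. Length and role move together here, and their parts cannot be told apart.

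**Figure D4:**
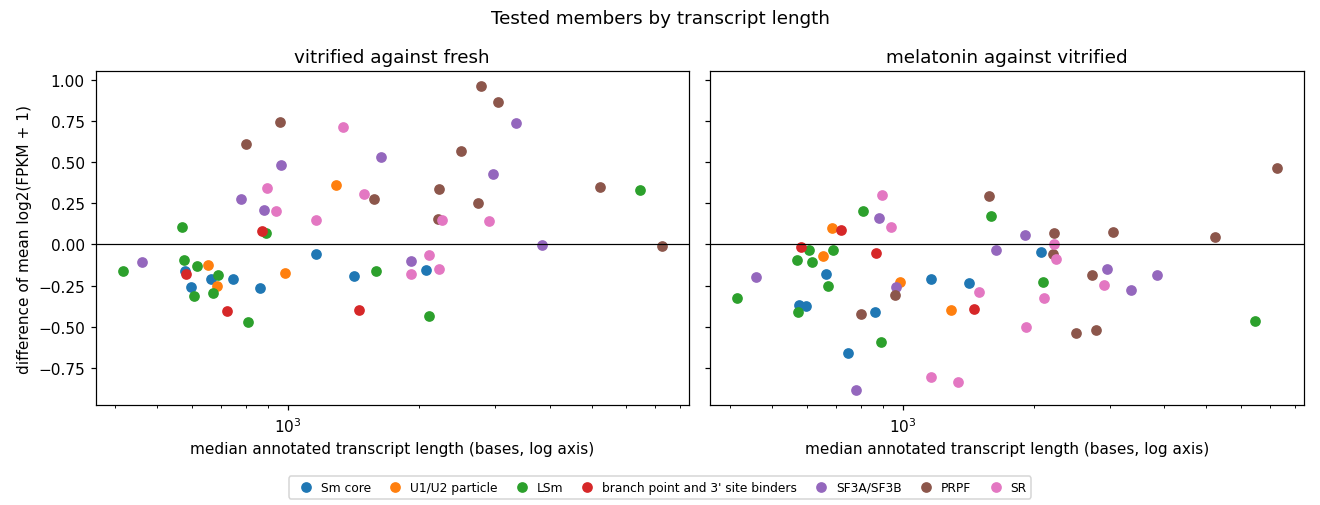
Difference of mean log2(FPKM + 1) of each tested member against its median annotated transcript length (log axis), coloured by role, for vitrified against fresh and for melatonin against vitrified. In the first panel short transcripts of the Sm core and LSm genes lie mostly below 0 and long ones of PRPF genes above, and in the second panel no such slope is seen (rho 0.07).

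Other genes of the splicing pathway were taken from 6 lists with 156 genes, of which 149 were tested. Of these, 0 passed in any comparison. For vitrified against fresh, 21 had an unadjusted p below 0.05 with a higher level (14.1%, beside 15.6% of all genes) and 4 with a lower level (2.68%, beside 4.56%), and 41 and 14 were free of overlap (27.5% and 9.40%, beside 26.4% and 10.6%). For melatonin against vitrified the counts were 4 higher and 9 lower (2.68% and 6.04%, beside 4.59% and 10.2%), and 14 and 24 without overlap (9.40% and 16.1%, beside 9.3% and 15.4%). For melatonin against fresh they were 17 higher and 4 lower (11.4% and 2.68%, beside 11.6% and 6.82%), and 31 and 14 without overlap (20.8% and 9.40%, beside 20.8% and 13.5%). These shares were close to or under those of all genes. The 18 tested genes of the SMN complex and Sm protein assembly, which load the Sm ring onto RNA, had medians of -0.02, 0.09 and 0.22 in the same order, beside 0.14, -0.05 and 0.09 for all tested genes. The 29 hnRNP genes, whose products coat pre-mRNA, had medians of 0.13, -0.15 and -0.02. For the 31 SR-related proteins and SR kinases the medians were 0.35, -0.11 and 0.15, and for the 31 genes of the Prp19 complex and the catalytic steps 0.16, 0.02 and 0.20. The 27 other U snRNP proteins had 0.10, 0.01 and 0.05, and the 13 genes of the exon junction complex 0.32, -0.06 and 0.04.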

How the data were processed

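Poly(A) RNA of mouse blastocysts was sequenced in 8 libraries (2 fresh, 3 vitrified, 3 vitrified with melatonin). Per the labels' protocols, libraries were stranded by dUTP, whereas the series text names Smart-seq2, and the sources do not settle which was used. The authors deposited 1 table of FPKM per gene and library, and the submitters' processing notes name the build mm10. For the aligner, counter, annotation, filters and strand setting, a name is not given in the sources used here.

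Genes at 1 FPKM or more in at least 2 libraries were tested with limma 3.58.1 (R 4.3.3) on log2(FPKM + 1), with a variance trend and all 3 groups in 1 model. Differences on this scale understate changes of low genes. Coordinates, lengths and overlaps came from GENCODE M21 (GRCm38), matched for 99.4% of genes. Depth was estimated from the step of low values, which were whole within 0.1 for 94.6% to 97.2% of them. On simulated data with 200 of 10755 genes changed, 2-fold changes were found in 43%, 61% and 41% of cases for the 3 comparisons in order. For 4-fold changes these were 96%, 99% and 95%, and 7, 17 and 8 unchanged genes were called. The simulation gave each gene 1 spread in all libraries, drew values independently and set changes on the log2(FPKM + 1) scale. It had no differences between whole libraries such as those of the fresh pair, so these shares do not give the power of the real data. Sums were compared by exact permutation tests. Tables and plots used Python 3.11.15, pandas 2.3.3, scipy 1.17.1 and matplotlib 3.10.9.

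The members and lists were chosen with earlier results of these data known. Named members were those called, the 5 highest and 5 lowest differences per comparison (among members whose mean reached 5 FPKM), the most abundant of each role and those not tested. Alternatives covered scaling, filter, pseudocount, model, replicate block, threshold and each library left out, and removal of length and GC trends was added after seeing the data.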

Additional observations from a re-analysis of the deposited data

How the results depend on the processing

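Counts of members and of all genes called, and the members' median difference, were recomputed under each setting. In the comparison of vitrified with fresh, an adjusted p below 0.1 called 2 members (Prpf6 and Sf3b1) and 686 genes. All genes called numbered 93, and 3 with quantile normalization, 7 with median ratio scaling, 1 with no filter, 11 in a fit of only the groups compared and 15 with length and GC trends removed. The median of -0.01 became -0.19 with median ratio scaling and -0.18 with length and GC trends removed. That removal also centres each library on the mean of all genes, so its effect is not of the trends alone. For melatonin against vitrified, a fit of only these groups called 1 member (Srsf2) and 68 genes, and the 15 genes called became 8 with quantile normalization, 6 with a pseudocount of 0.1 and 45 at an adjusted p below 0.1. For melatonin against fresh, 0 genes became 5 with a pseudocount of 0.1 and 2 in a fit of only these groups, and the median of -0.15 became -0.27 with median ratio scaling.

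Replicate numbers did not pair the samples: correlations of deviations between libraries of the same biosample number ran from -0.11 to 0.12. With the biosample number as a replicate block, 1 gene was called for vitrified against fresh and 1 for melatonin against vitrified. With the title number as a block, 39, 0 and 44 genes were called in the 3 comparisons and the medians were -0.160, -0.0462 and -0.268. Both blocks called 0 members.

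Leaving out each library in turn gave 0 to 2 members called for vitrified against fresh (2 without fresh replicate 2, Prpf38b and Prpf4b), 0 to 1 for melatonin against vitrified (Srsf2 without either fresh library) and 0 to 6 for melatonin against fresh (6 without fresh replicate 2, with Prpf4b, Prpf6 and Prpf8 higher and Lsm1, Snrpg and Srsf9 lower). All genes called ranged from 2 to 433, from 1 to 68 and from 0 to 565. Medians ranged from -0.10 to 0.04, from -0.24 to -0.12 and from -0.322 to -0.0807. A fit without 1 fresh library takes the other one to vary like the remaining groups. Calls over all genes also varied widely between the fits with a library left out. The members called in such fits are therefore not read as a change that sets members apart from all genes. Of 540 values of single named members under alternatives, 533 kept their direction and side of the threshold, 7 passed the threshold and 0 reversed. These were the members with the highest and lowest differences in these same data. Some settings, such as limma without the variance trend, leave a difference unchanged. The counts were therefore partly fixed in advance and are no measure of support. The 2 fresh libraries and their spread limit all comparisons with fresh.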

Other observations

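Among pathway genes outside the member families, 5 were singled out after their values were seen, and none passed the test. Each had the smallest adjusted p of its list in at least 1 comparison. Others that had this too, such as Ewsr1 among hnRNP genes and Xpo1 among Sm protein assembly genes, are not described. Xab2, a protein of the Prp19-associated complex, had 12.2 and 15.1 FPKM in fresh, 29.3, 22.2 and 24.0 FPKM in vitrified and 22.9, 23.3 and 19.6 FPKM in melatonin libraries. Both fresh libraries were below all others (vitrified against fresh 0.83 ± 0.18, SE, limma adjusted p = 0.0594). Cdc5l, a core subunit of the Prp19 complex, had 63.1 and 67.4 FPKM in fresh, 119, 87.0 and 108 FPKM in vitrified and 104, 141 and 99.99 FPKM in melatonin libraries, with the fresh libraries again the lowest.

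Phf5a, a small SF3B subunit whose symbol falls outside the families, had the opposite order, with 209 and 195 FPKM in fresh, 136, 165 and 132 FPKM in vitrified and 110, 131 and 144 FPKM in melatonin libraries. Here the fresh libraries were above all others. Hnrnpab, an hnRNP protein, had 180 and 98.5 FPKM in fresh, 175, 169 and 190 FPKM in vitrified and 99.8, 73.8 and 88.3 FPKM in melatonin libraries. The melatonin libraries were below the vitrified ones by 1.03 ± 0.21 (SE, limma adjusted p = 0.109), and fresh replicate 2 lay within the melatonin range. Srrm2, a large scaffold of nuclear speckles, had 1.77 and 4.52 FPKM in fresh, 7.49, 8.09 and 6.42 FPKM in vitrified and 4.76, 3.33 and 2.99 FPKM in melatonin libraries. As for Srsf2, all vitrified libraries were the highest.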
